A study of Mus musculus with 4 samples.

Results

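Eif3j1 and Eif3j2 are the mouse genes for the J subunit of eukaryotic translation initiation factor 3 (eIF3), and they were taken as the 2 rows of that name among 31253 gene rows in the tables of both libraries. Both were chosen because their levels had been seen to differ between the genotypes in these data, so their values by genotype are given as a description, with no test. The cells were live CD45+ leukocytes of the tumor-bearing hemisphere, from 4 wildtype (WT) C57Bl/6 mice and 4 CaMKK2 KO mice on the C57Bl/6 background, taken 14 days after CT2a glioma cells were implanted in the brain. No treatment beyond implantation is given in the labels. The study states that its mice were female, matched for age and 8 to 12 weeks old. C57BL/6J mice were bought, whereas the CaMKK2 KO mice were given by another laboratory, so mouse source and genotype cannot be told apart. The deletion is carried by the whole mouse and is not limited to immune cells. The cells of each mouse carried a hashtag antibody, and each genotype was run as a pool of its 4 mice on 1 channel of the 10X platform, so genotype and channel cannot be told apart either.

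The eIF3 complex binds the small ribosomal subunit and holds the initiation machinery together while a ribosome is brought to an mRNA. Its core is a stable scaffold of many subunits, whereas the J subunit is loosely attached, sits near the mRNA entry channel and takes part in mRNA binding and in ribosome recycling. Eif3j1 is a spliced gene, while Eif3j2 has a single exon and reads almost as a copy of the Eif3j1 mRNA.

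Eif3j1 (ENSMUSG00000027236) lies at chr2:122028546-122056598 on the plus strand of build mm10, with 8 exons and a transcript of 5413 bases in GENCODE M21. Eif3j2 (ENSMUSG00000043424), on the minus strand of another chromosome, has 1 exon of 2379 bases. It aligned to bases 78 to 2446 of the Eif3j1 transcript with 2365 identical bases, or 99.4% of its length. The transcripts differed by 4 substitutions, none of them in coding bases, and by 10 bases added in Eif3j2 in 2 stretches, of which 1 stretch of 6 bases lies in the coding part. Within the aligned part only reads over these few places can tell the genes apart, so 4 of the 6 are given here as they stand in Eif3j1. Capitals mark the substituted base, or the pair of bases between which Eif3j2 has added bases. In the coding window the added bases fall in a repeat, so their place within it is arbitrary.
Coding part, exon 1, chr2:122028682-122028709, plus strand: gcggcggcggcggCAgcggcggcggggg
3′ UTR, exon 8, chr2:122052408-122052435, plus strand: acatgacaaaaaaAGtgtagtatttacc
3′ UTR, exon 8, chr2:122052778-122052806, plus strand: gaggacttcatatgTgggagggaacactg
3′ UTR, exon 8, chr2:122053472-122053500, plus strand: aatactgttgaaggCagacaagggctaag
The last of these substitutions lies 145 bases before the 3′ end of Eif3j2. Of the 2289 stretches of 91 bases (the read length) in Eif3j2, 1951 occur letter for letter in Eif3j1, or 85.2%. In the last 500 bases of Eif3j2, where 3′ end counting draws many of its reads, 319 of 410 such stretches were shared and 91 were not. Eif3j1 runs on for 2967 bases past the end of Eif3j2, and from base 2335 onward it overlaps Spg11, which lies on the other strand. Of all other genes, 2 also shared stretches of 91 bases with the pair when both strands were searched, Spg11 with 665 and Gm3650 with 264. How reads that match more than 1 gene were counted, and whether counting used strand, is not given in the sources used here. The split between Eif3j1 and Eif3j2 therefore holds only for reads that could be assigned. The effect of shared reads on the levels was not tested.

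**Figure D1:**
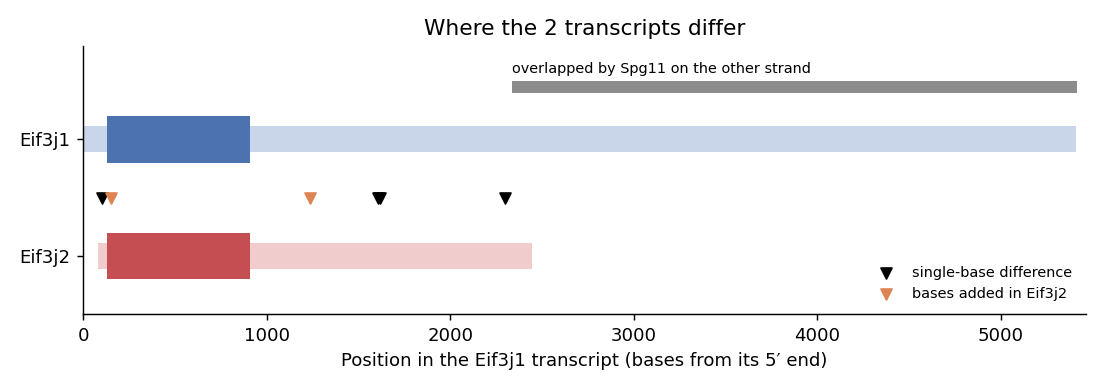
Both transcripts drawn on the positions of Eif3j1 in bases from its 5′ end, with thick bars for the coding part and thin bars for the untranslated parts. Triangles mark the 6 places where the transcripts differ, and the grey bar marks the bases from 2335 on that lie inside Spg11 on the other strand.

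Eif3j2 itself lies at chr18:43475418-43477796, with the short miRNA gene Gm27325 inside it, as Gm47314 lies inside Eif3j1. The deposited unique molecular identifier (UMI) counts gave 5042 WT and 5624 CaMKK2 KO cells after filtering, with 1006 to 1658 cells and 11859666 to 20192996 UMIs in a mouse. The 2 libraries shared 42 barcodes. Levels are UMIs of a gene per 1000000 UMIs of all genes (CPM), summed over the cells of a mouse. They come from counts at 3′ ends and are not scaled by transcript length. Camkk2, the deleted gene, stood at 27.9, 29.7, 39.1 and 28.0 CPM in WT mice 1 to 4 and at 14.9, 18.5, 13.2 and 22.9 CPM in CaMKK2 KO mice 1 to 4. The groups did not overlap, but Camkk2 UMIs remained in every CaMKK2 KO mouse, and totals per gene do not show from which part of the transcript they came.

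In WT mice nearly all UMIs of the pair were assigned to Eif3j1, whereas in CaMKK2 KO mice most were assigned to Eif3j2. Over all cells, Eif3j1 stood at 85.5, 77.9, 88.6 and 89.1 CPM in WT mice 1 to 4. In CaMKK2 KO mice 1 to 4 it stood at 19.4, 17.2, 18.3 and 15.6 CPM. The means of 85.3 ± 5.17 and 17.6 ± 1.63 CPM (SD, n = 4) were 4.84-fold apart, and the highest CaMKK2 KO mouse lay far below the lowest WT mouse.

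Eif3j2 moved the other way. It stood at 1.95, 1.95, 1.96 and 1.89 CPM in WT mice 1 to 4, or 131 UMIs in all. In CaMKK2 KO mice 1 to 4 it stood at 50.4, 45.2, 46.1 and 40.2 CPM, or 3163 UMIs in all. The means were 1.94 ± 0.0321 and 45.5 ± 4.16 CPM (SD, n = 4), which is 23.5-fold higher in CaMKK2 KO mice, again with no overlap. Across all genes, 10.7% of the 11263 with at least 200 UMIs did not overlap between the 4 WT and the 4 CaMKK2 KO mice. When these genes were ordered by fold change, Eif3j2 was number 9 from the top and Eif3j1 was number 44 from the bottom. Since the pair was chosen for this contrast, nothing is read from these ranks.

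Summed over both genes, the level was lower in CaMKK2 KO mice, but far less so than that of Eif3j1 alone. Stretches of 91 bases shared with the other gene made up 36.7% of those of Eif3j1 and 85.2% of those of Eif3j2, over the whole transcripts. Near the 3′ ends, where counting draws many reads, the genes differed more. Eif3j1 ends 2967 bases past the end of Eif3j2, whereas 319 of 410 stretches in the last 500 bases of Eif3j2 were shared. The sum thus adds genes whose reads can be assigned to different degrees, and the effect of this on the sum was not tested. The sum was 87.4, 79.9, 90.6 and 91.04 CPM in WT mice 1 to 4 and 69.8, 62.3, 64.4 and 55.8 CPM in CaMKK2 KO mice 1 to 4. The means of 87.2 ± 5.16 and 63.1 ± 5.76 CPM (SD, n = 4) gave a ratio of 0.723, or -0.47 on the log2 scale, and every CaMKK2 KO mouse was below every WT mouse. Per 1000 UMIs of the 12 core eIF3 subunits in the same mouse, the pair counted 31.8, 28.98, 32.5 and 30.5 UMIs in WT mice 1 to 4. In CaMKK2 KO mice 1 to 4 it counted 25.5, 25.0, 20.8 and 24.3 UMIs by the same measure. The order of the mice differed between both scales, but the genotypes stayed apart on each, with a ratio of 0.772 per core UMI.

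**Figure D2:**
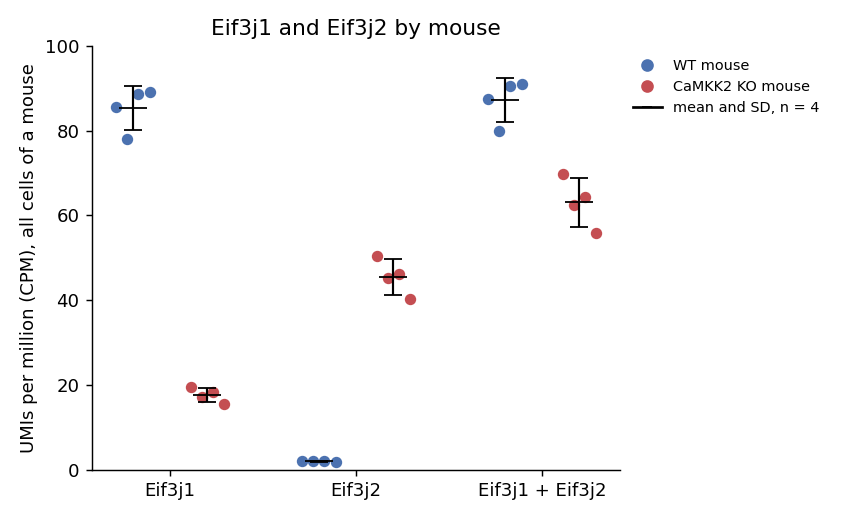
CPM of Eif3j1, Eif3j2 and their sum over all cells of each mouse (points), with the mean and SD of 4 mice per genotype. Eif3j1 is high in WT mice (mean 85.3 CPM) and low in CaMKK2 KO mice (17.6), Eif3j2 is the reverse (1.94 and 45.5), and the sum differs less (87.2 and 63.1).

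The share of Eif3j2 in the pair varied little between the mice of a genotype. Of all Eif3j1 and Eif3j2 UMIs of a mouse, Eif3j2 made up 2.23%, 2.44%, 2.16% and 2.08% in WT mice 1 to 4. It made up 72.2%, 72.4%, 71.6% and 72.1% in CaMKK2 KO mice 1 to 4. The 4 mice of a genotype thus spanned less than 1 percentage point, while the genotype means were 2.23% ± 0.155 and 72.1% ± 0.368 (SD, n = 4). Over the summed UMIs of a genotype, the 95% Wilson intervals were 1.87% to 2.62% of 5911 UMIs in WT and 70.7% to 73.4% of 4390 UMIs in CaMKK2 KO mice. These intervals cover counting error only.

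Single cells held few UMIs of either gene, at most 10 of Eif3j1 and 3 of Eif3j2 in a WT cell and at most 6 and 9, respectively, in a CaMKK2 KO cell. Of 5042 WT cells, 2767 held Eif3j1 UMIs alone, 30 held Eif3j2 UMIs alone, 97 held both and 2148 held neither. Of 5624 CaMKK2 KO cells, 527 held Eif3j1 alone, 1546 held Eif3j2 alone, 500 held both and 3051 held neither. UMIs assigned to both genes were therefore found within the same CaMKK2 KO cells as well as in different ones. A UMI of Eif3j1 was seen in 57.0% ± 4.02 of the cells of a WT mouse and in 18.1% ± 2.78 of those of a CaMKK2 KO mouse (SD, n = 4), at median depths of 12559 and 11436 UMIs per cell. After each cell was thinned to 4000 UMIs, which left out 387 WT and 403 CaMKK2 KO cells, these shares were 27.4% ± 0.886 and 7.30% ± 0.683. Eif3j2 was seen in 2.54% ± 0.171 and 36.1% ± 5.95 of the cells, and in 0.774% ± 0.103 and 15.95% ± 1.53 after thinning. The pair is used by all cell types, so none of the classes here could serve as a measure of free RNA, and the 2.54% of WT cells with an Eif3j2 UMI cannot be told apart from misassigned reads or free RNA. The same limit holds for the Eif3j1 UMIs in CaMKK2 KO cells, so the 500 cells with both do not show that single cells transcribed both genes.

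Cells were then sorted into classes by marker genes, each cell going to the class with the largest share of its markers detected. As an exception, a cell with at least 4 microglia markers was called microglia-like even where its macrophage or other myeloid share was larger. In 5 classes every mouse had at least 20 cells, and the same exchange was present in each of them. TAM-like cells, the tumor-associated macrophages defined by complement C1q and related genes, held 1903 WT and 1541 CaMKK2 KO cells. Eif3j2 made up 2.18%, 2.39%, 1.42% and 1.47% of the pair in TAM-like cells of WT mice 1 to 4. It made up 70.2%, 70.2%, 73.5% and 70.1% in those of CaMKK2 KO mice 1 to 4. The 7 macrophage markers were all detected in TAM-like cells and summed to 16189 to 17361 CPM in WT and to 10793 to 15907 CPM in CaMKK2 KO mice. The 6 classical monocyte markers, also all detected there, summed to 1130 to 2231 CPM in WT and to 2133 to 6465 CPM in CaMKK2 KO mice, and their part in the TAM-like values was not tested.

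Microglia-like cells, the resident macrophages of the brain, held 330 WT and 162 CaMKK2 KO cells and only 122 UMIs of the pair in CaMKK2 KO mice, so their shares were the least precise. Eif3j2 made up 3.05%, 2.68%, 3.12% and 0% of the pair in microglia-like cells of WT mice 1 to 4. The 0 of 34 UMIs in WT mouse 4 has a 95% Wilson interval that reaches 10.2%. The shares in CaMKK2 KO mice 1 to 4 were 50%, 66.7%, 52.0% and 77.8%. The CaMKK2 KO mean of 61.6% ± 13.1 (SD, n = 4) was the lowest of the 5 classes and also the one with the widest spread. Over summed UMIs the microglia-like share was 58.2%, with a 95% Wilson interval of 49.3% to 66.6%.

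In cMono-like cells, the classical monocytes that enter from blood, 732 WT and 1443 CaMKK2 KO cells were found. Eif3j2 made up 0%, 3.86%, 2.41% and 2.38% of the pair in cMono-like cells of WT mice 1 to 4, and the 0 of 47 UMIs in WT mouse 1 allows a share of up to 6.38%. In CaMKK2 KO mice 1 to 4 it made up 82.8%, 77.4%, 73.3% and 76.7%, with a mean of 77.6% ± 3.95 (SD, n = 4), the highest of the 5 classes. T cell-like and NK cell-like cells showed the exchange as well, so it was present in lymphoid as well as myeloid cells. The T cell-like shares were 4.00%, 2.61%, 2.45% and 2.55% in WT mice 1 to 4 and 69.6%, 66.0%, 68.9% and 70.5% in CaMKK2 KO mice 1 to 4. The NK cell-like shares were 2.42%, 1.10%, 3.28% and 3.08% in WT mice 1 to 4 and 76.0%, 71.4%, 74.4% and 71.1% in CaMKK2 KO mice 1 to 4. In cells thinned to 4000 UMIs the mean WT share was 5.20% in T cell-like cells, against 2.90% unthinned, and 1.205% in cMono-like cells, against 2.16% unthinned. These thinned means rest on few Eif3j2 UMIs. WT mice 1 to 4 kept 1, 1, 2 and 3 in T cell-like cells, where WT mouse 1 had a share of 11.1%. In cMono-like cells they kept 0, 2, 2 and 0. In none of the 5 classes did the unthinned shares of the genotypes overlap, which the choice of the pair for this contrast had fixed at least over all cells together.

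**Figure D3:**
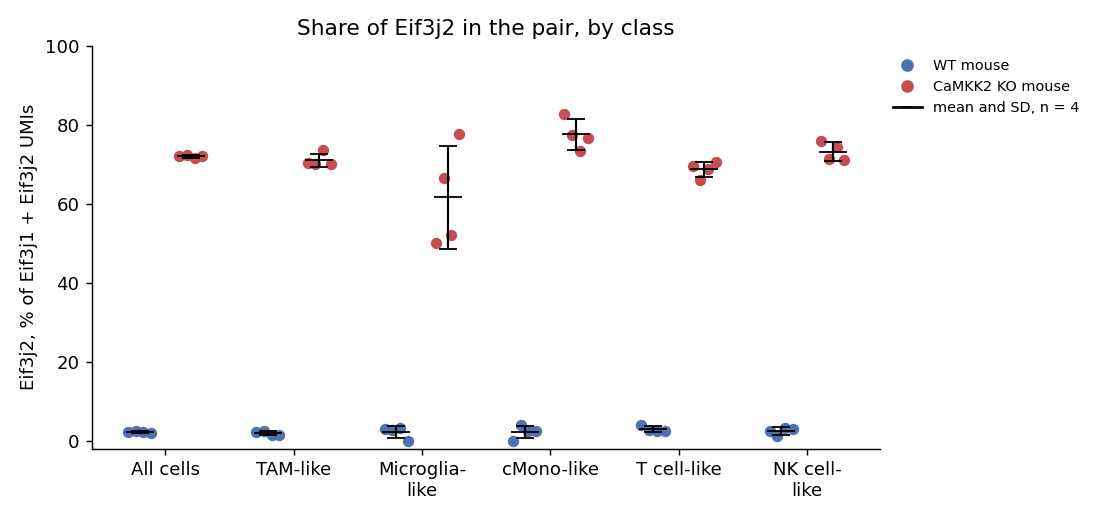
Eif3j2 as a percent of the Eif3j1 and Eif3j2 UMIs of each mouse (points), over all cells and in 5 marker-defined classes, with mean and SD of 4 mice per genotype. All WT points lie at or below 4.00% and all CaMKK2 KO points at or above 50%, with the widest spread in microglia-like cells.

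The remaining classes had too few cells per mouse for a value in each and are given as summed UMIs of a genotype. Non-classical monocyte-like cells held no Eif3j2 UMI among 57 of the pair in WT, with a 95% Wilson interval that reaches 6.31%. In CaMKK2 KO mice they held 74 among 96, or 77.1% with a 95% Wilson interval of 67.7% to 84.4%. In DC1-like cells, dendritic cells specialized for cross-presentation, Eif3j2 held 2 of 107 UMIs in WT and 41 of 53 in CaMKK2 KO mice. In DC2-like cells it held 3 of 219 and 51 of 84, respectively. B cell-like cells held 1 Eif3j2 UMI of 32 in WT and 38 of 62 in CaMKK2 KO mice. Mature dendritic-like cells held 2 of 28 and 23 of 40, and plasmacytoid dendritic-like cells held 0 of 18 and 14 of 22. Over summed UMIs Eif3j2 was thus the larger part of the pair in CaMKK2 KO cells of each of these 6 small classes. The 95% Wilson intervals also allowed it to be the smaller part in B cell-like (48.8% to 72.4%), mature dendritic-like (42.2% to 71.5%) and plasmacytoid dendritic-like cells (43.0% to 80.3%). Mast or basophil-like cells held 5 UMIs of the pair in WT and 3 in CaMKK2 KO mice, and neutrophil-like cells held 3 and 0, so at this depth no share could be given for either.

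The summed pair differed by class as well as by genotype. In TAM-like cells it was 85.8, 82.2, 98.1 and 93.5 CPM in WT mice 1 to 4 and 75.4, 56.2, 63.4 and 62.0 CPM in CaMKK2 KO mice 1 to 4. In NK cell-like cells it was 129, 103, 131 and 128 CPM in WT mice 1 to 4 and 79.4, 88.4, 81.7 and 65.7 CPM in CaMKK2 KO mice 1 to 4. The genotypes did not overlap in either class. In T cell-like cells the sum was 74.6 to 89.6 CPM in WT but 46.8 to 61.3 CPM in CaMKK2 KO mice, also without overlap. In microglia-like cells the lowest WT mouse, at 60.4 CPM, lay just above the highest CaMKK2 KO mouse, at 60.2 CPM. In cMono-like cells the genotypes touched, with 79.3 to 93.0 CPM in WT but 50.2 to 79.8 CPM in CaMKK2 KO mice. Over all genes tested, 14.3% did not overlap in TAM-like cells, 10.7% in microglia-like cells, 10.4% in cMono-like cells, 11.9% in T cell-like cells and 11.1% in NK cell-like cells. The means of the pair gave a CaMKK2 KO to WT ratio of 0.715 in TAM-like cells, 0.656 in microglia-like cells and 0.806 in cMono-like cells, and of 0.683 and 0.642 in T cell-like and NK cell-like cells. The sum was not lower in CaMKK2 KO mice in every small class. Over summed UMIs, B cell-like cells stood higher in CaMKK2 KO mice (55.3 CPM) than in WT mice (48.7 CPM), whereas the means over mice gave a ratio of 0.942. DC2-like cells were nearly level at 60.3 and 58.8 CPM. Mature dendritic-like cells stood at 37.1 and 34.8 CPM and plasmacytoid dendritic-like cells at 49.4 and 42.8 CPM over summed UMIs, but the means over mice gave ratios of 1.30 and 1.15, so at this depth no direction could be given for either.

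The classes were also ordered by the mean of the summed pair over the 8 mice, and neighbours in that order were compared within mice. The choice of the pair did not use this contrast. However, the order came from the values that were then compared, so it set which classes were compared and the direction of each difference. The p-values do not allow for this. The mean level was 101 CPM in NK cell-like, 77.1 in TAM-like, 75.4 in cMono-like, 68.1 in T cell-like and 64.7 in microglia-like cells. NK cell-like cells were higher than TAM-like cells in 8 of 8 mice, by 0.37 ± 0.21 on the log2(CPM + 1) scale (SD of the paired differences). The two-sided exact paired permutation test gave p = 0.0078, the smallest it can give with 8 mice, and p = 0.031 after Benjamini-Hochberg adjustment over 4 neighbouring pairs. The difference between NK cell-like and TAM-like cells depended on the scale, since per 1000 core eIF3 UMIs it was -0.08 (exact permutation test, adjusted p = 0.45). The next 3 steps did not pass, with exact permutation p = 0.70 for TAM-like against cMono-like, 0.23 for cMono-like against T cell-like and 0.39 for T cell-like against microglia-like cells. The genotypes did not share this order, since TAM-like cells were above cMono-like cells in 4 of 4 WT mice (means 89.9 and 83.5 CPM) but in only 1 of 4 CaMKK2 KO mice (64.2 and 67.3 CPM), and this difference between the genotypes was not tested. Per core eIF3 UMI the T cell-like value was 0.80 lower on the log2 scale than the microglia-like value. It was 0.75 lower than the cMono-like value (exact permutation test, adjusted p = 0.016 for both). However, the core level used as divisor also differed by class. In WT mice the 12 core subunits together averaged 3880 CPM (T cell-like), 3613 (NK cell-like), 2627 (TAM-like), 2532 (cMono-like) and 1969 (microglia-like). In CaMKK2 KO mice these means were 3596, 3285, 2416, 2318 and 1951 CPM in the same order. A difference per core UMI is thus not by itself a difference in the level of the pair.

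**Figure D4:**
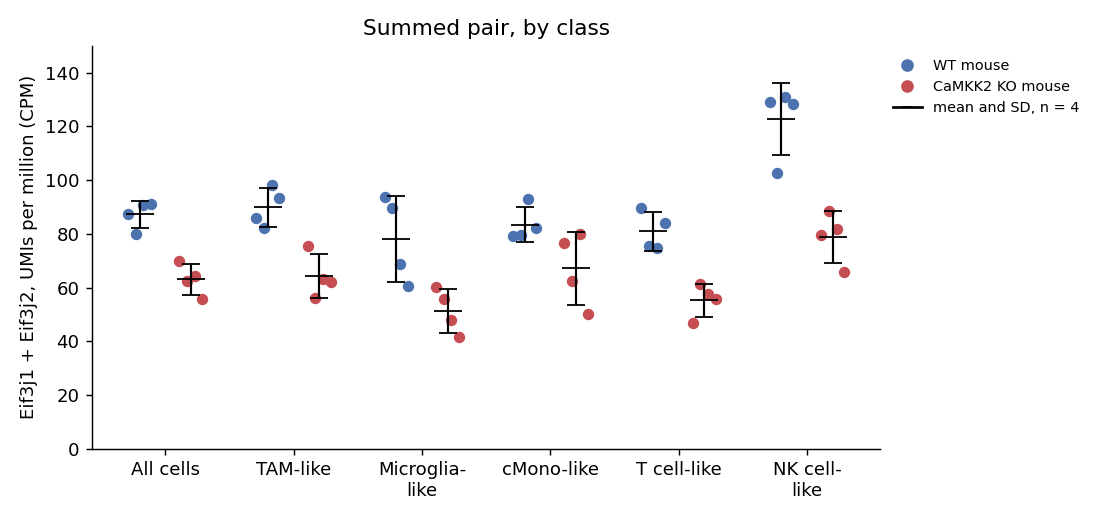
Summed CPM of Eif3j1 and Eif3j2 in each mouse (points), over all cells and in 5 marker-defined classes, with mean and SD of 4 mice per genotype. NK cell-like cells are highest in both genotypes (means 123 and 78.8 CPM), and the CaMKK2 KO mean lies below the WT mean in each of these 5 classes, with cMono-like cells overlapping.

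The other subunits of the complex were used as a reference, since the choice of the pair did not use them. None of the 12 core eIF3 subunits was called between the genotypes in all cells by the quasi-likelihood test of edgeR at an adjusted p of 0.05, where 1.53% of all 11263 genes were called. DESeq2 also called 0 of 12, and none had an unadjusted p under 0.05 with either tool. Their log2 fold changes ran from -0.22 to 0.04 with a median of -0.09, against a median of -0.04 over all genes. No core subunit separated the 4 WT from the 4 CaMKK2 KO mice in all cells. Without CaMKK2 KO mouse 3 edgeR still called 0 of 12, but 4 had an unadjusted p under 0.05. All 12 fold changes were then negative, with a median of -0.19 against -0.07 over all genes. The share of all genes with an unadjusted p under 0.05 is not given for this fit, so nothing is read from the count of 4. Without CaMKK2 KO mouse 4, 6 of 12 were negative, with a median of -0.02 against -0.02.

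Eif3a, the largest subunit and scaffold of the complex, had 299 ± 19.1 CPM in the WT group and 258 ± 32.5 CPM in the CaMKK2 KO group (log2 fold change -0.21 ± 0.11, SE, edgeR adjusted p = 0.35). Eif3b, which with Eif3a anchors the core, stood at 85.0 ± 3.84 and 72.8 ± 9.99 CPM, the largest difference among the 12 at -0.22 ± 0.10 (edgeR adjusted p = 0.32). Eif3i and Eif3g, which attach to Eif3b, stood at 201 ± 10.9 against 175 ± 36.3 and at 100.2 ± 7.04 against 98.2 ± 11.2 CPM. Eif3f, Eif3h, Eif3m, Eif3e, Eif3c, Eif3k and Eif3l belong to the octamer that gives the complex its shape. Among these, Eif3f was the most abundant by UMIs at 507 ± 24.1 and 477 ± 64.5 CPM, and Eif3c was nearly level at 207 ± 6.88 and 205 ± 14.8 CPM. Eif3h stood at 418 ± 25.3 and 410 ± 57.1, Eif3k at 329 ± 13.5 and 325 ± 30.8, Eif3e at 252 ± 12.97 and 236 ± 50.2, Eif3m at 207 ± 11.4 and 190 ± 22.7, and Eif3l at 90.6 ± 6.91 and 81.7 ± 11.3 CPM. Eif3d, a cap-binding subunit, was the only one of the 12 with a positive fold change, at 123 ± 12.3 and 127 ± 12.03 CPM. The signs of Eif3c, Eif3g, Eif3h and Eif3k turned positive under other scalings, all within 0.04 of 0.

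In the 5 classes the core subunits gave 0 calls as well. Over all genes tested, edgeR called 2.43% in TAM-like, 1.55% in microglia-like, 1.98% in cMono-like, 1.74% in T cell-like and 2.91% in NK cell-like cells. An unadjusted p under 0.05 was reached by 2 of 12 in TAM-like, 2 in microglia-like and 2 in T cell-like cells, and by 0 in cMono-like and NK cell-like cells. The share of all genes with an unadjusted p under 0.05 is not given here, so nothing is read from such counts. DESeq2 called 0 of 12 in each class. In NK cell-like cells 2 of 12 had an unadjusted p under 0.05 with TMM scaling and 2 with DESeq2, where all 12 fold changes were negative. The median log2 fold change of the 12 was -0.11 in TAM-like cells (-0.09 over all genes) and -0.03 in microglia-like cells (-0.11). It was -0.11 in cMono-like (-0.01), -0.06 in T cell-like (0.07) and -0.14 in NK cell-like cells (0.07). The genotypes did not overlap for 2 of 12 in TAM-like cells (Eif3b and Eif3c), 3 in microglia-like cells (Eif3a, Eif3b and Eif3k) and 2 in T cell-like cells (Eif3e and Eif3m), against 14.3%, 10.7% and 11.9% of all genes there, and for 0 in cMono-like and NK cell-like cells. All of these had lower means in CaMKK2 KO mice except Eif3k. Eif3b had the largest difference among the 12 in TAM-like cells, with 90.4 ± 4.05 CPM in WT against 70.5 ± 7.88 in CaMKK2 KO mice (edgeR adjusted p = 0.081). The same held in microglia-like cells, where Eif3b stood at 84.7 ± 16.9 and 48.0 ± 10.5 CPM (edgeR adjusted p = 0.087).

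**Figure D5:**
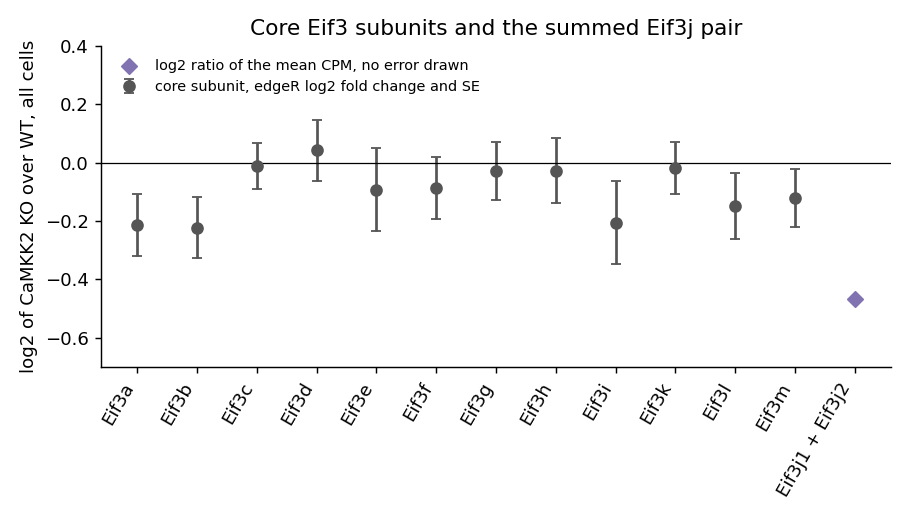
Log2 of CaMKK2 KO over WT in all cells for the 12 core subunits (circles, edgeR fold change with its standard error, 4 against 4 mice) and for the summed Eif3j pair (diamond, ratio of the mean CPM, no error drawn). The core subunits lie between -0.22 and 0.04, and the pair lies at -0.47. The effect of reads shared by Eif3j1 and Eif3j2 on the value of the pair was not tested.

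Of 25 further genes of initiation and recycling, among them the eIF1, eIF2, eIF4 and eIF5 factors, poly(A)-binding protein Pabpc1 and the recycling factor Abce1, edgeR called 0 in all cells, and 3 had an unadjusted p under 0.05. DESeq2 also called 0 in all cells. In the classes edgeR called 1, which was Eif4g1 in microglia-like cells. Eif4g1, the scaffold that joins the cap-binding protein to eIF3, stood at 144 ± 11.0 CPM in microglia-like cells of WT and 92.3 ± 6.86 CPM in those of CaMKK2 KO mice (log2 fold change -0.63 ± 0.13, SE, edgeR adjusted p = 0.038). With DESeq2 the adjusted p of Eif4g1 was 0.13, and it passed without WT mouse 4 or CaMKK2 KO mouse 3 but not when any of the other 6 mice was left out. For 4 of the 25 genes, Eif4a1, Eif4g1, Eif4g2 and Eif4g3, the genotypes did not overlap in all cells, against 10.7% of all genes. In TAM-like cells 9 of the 25 did not overlap, all lower in CaMKK2 KO mice, against 14.3% of all genes, and 9 had an unadjusted p under 0.05. Of the 25 fold changes there 22 were negative, with a median of -0.18 against -0.09 over all genes. In microglia-like cells 5 did not overlap, against 10.7% of all genes, and 7 had an unadjusted p under 0.05, with a median log2 fold change of -0.23 against -0.11 over all genes. For the counts at an unadjusted p under 0.05 the share of all genes is not given here, so nothing is read from them. In cMono-like and T cell-like cells 2 did not overlap in each, against 10.4% and 11.9% of all genes, and in NK cell-like cells 0, against 11.1%. In T cell-like cells only 5 of the 25 fold changes were negative, with a median of 0.07 against 0.07 over all genes. In cMono-like cells 18 were negative, with a median of -0.09 against -0.01. In NK cell-like cells 16 were negative, with a median of -0.05 against 0.07.

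The genes next to the pair on their chromosomes were read from the same fit, 5 on either side of each gene among those tested. Of these 20, edgeR called 2, against 1.53% of all genes called in either direction. Both lay beside Eif3j1, and both were lower in CaMKK2 KO mice, against 0.87% of all genes called lower. Spg11, which encodes the lysosomal protein spatacsin and overlaps the last 3079 bases of Eif3j1 on the other strand, averaged 10.4 ± 0.238 CPM over WT and 6.03 ± 1.19 CPM over CaMKK2 KO mice (log2 fold change -0.80 ± 0.15, SE, edgeR adjusted p = 0.040). Mfap1b, whose product is a splicing factor, lies at chr2:121460235-121474067, 554 kb before Eif3j1. It stood at 23.9 ± 1.99 and 17.3 ± 0.965 CPM (log2 fold change -0.47 ± 0.09, SE, edgeR adjusted p = 0.043). Its copy Mfap1a, at 23.7 ± 1.15 and 25.4 ± 2.53 CPM, lies beside it (edgeR adjusted p = 0.62), and how reads were split between these similar genes is uncertain. With TMM scaling neither Spg11 nor Mfap1b passed. Over 5 alternatives that kept all mice, the adjusted p (edgeR or DESeq2) ran from 0.0011 to 0.063 for Spg11 and from 0.0064 to 0.071 for Mfap1b. When 1 mouse was left out, Mfap1b failed for each mouse, while Spg11 then passed only without CaMKK2 KO mouse 4.

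Ctdspl2, the nearest gene before Eif3j1 at a distance of 14.9 kb, was level at 27.3 ± 1.03 CPM in the WT and 27.7 ± 2.44 CPM in the CaMKK2 KO group. B2m, the light chain of MHC class I molecules, lies 91.1 kb after Eif3j1 and ranged over 2768 to 4558 CPM in WT and over 4921 to 6652 CPM in CaMKK2 KO mice, without overlap (edgeR adjusted p = 0.18). Sord, which encodes sorbitol dehydrogenase, stood at 8.57 ± 0.434 and 13.04 ± 1.58 CPM (edgeR adjusted p = 0.0502). Wdr76, Casc4, Shf and Slc28a2 completed this side, with edgeR adjusted p of 0.33 to 0.93. Around Eif3j2 none of 10 passed. Prelid2, at 9.68 ± 2.76 and 16.6 ± 4.82 CPM, did not overlap between the genotypes (edgeR adjusted p = 0.18). Dpysl3, the nearest tested gene at 37.1 kb, had only 2.32 ± 1.74 and 1.16 ± 0.798 CPM (edgeR adjusted p = 0.48). The other 8, among them Dcp2, Ythdc2 and Trim36, had edgeR adjusted p of 0.26 to 0.99. In all, 5 of the 20 neighbours did not overlap between the genotypes, against 10.7% of all genes.

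The genes whose levels were most like those of each member were found by Pearson's r of log2(CPM + 1) over 40 sums, 1 for each of 8 mice in each of the 5 classes, among 11261 genes. These sums share the 2 libraries and the genotypes, so a gene that differs between the genotypes in all classes must rank high, and r is given as a description. Eif3j1 and Eif3j2 themselves had r = -0.91 over the 40 sums, but 0.54 over the 20 sums of WT and 0.10 over the 20 sums of CaMKK2 KO mice. The inverse relation thus lay between the genotypes and not within either.

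Most like Eif3j1 were Erdr1 (r = 0.84), the interferon-inducible gene Ifi213 (0.84), the zinc finger gene Zfp984 (0.83), Jmjd7 (0.79) and the histone gene H2ac20 (0.76). Ifi213 ranged over 26.9 to 116 CPM in WT and over 2.08 to 5.31 CPM in CaMKK2 KO mice. Zfp984, on chromosome 4, stood at 17.5 to 22.3 and 1.01 to 4.46 CPM. Jmjd7, on chromosome 2 as is Eif3j1, stood at 3.39 to 5.08 and 0.337 to 0.716 CPM.

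Most like Eif3j2 were Gm8797 (r = 0.97), Gm26737 (0.89), the interferon-inducible genes Ifi202b (0.89) and Ifi44l (0.85), and Lhfpl4 (0.83). Gm8797 ranged over 5.51 to 7.80 CPM in WT and over 157 to 205 CPM in CaMKK2 KO mice. Ifi202b and Ifi44l had no UMI in any WT mouse and stood at 132 to 452 and at 77.4 to 276 CPM in CaMKK2 KO mice. Ifi202b lies on chromosome 1, and so does Ifi213, the gene of the same family that followed Eif3j1. For the summed pair the likeness was weaker, with Kcnip3 (r = 0.72), Gcsh (0.70), Gm20707 (0.70), Jmjd7 (0.70) and Slc9a7 (0.68) at the top.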

How the data were processed

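The authors demultiplexed the runs with bcl2fastq 2.20 and aligned reads of 91 bases to mm10 with Cell Ranger 4.0.0 and STAR 2.7.5c, per the labels. They deposited UMI counts per gene and barcode, not normalized, with hashtag counts, for 6689 WT and 7271 CaMKK2 KO barcodes.

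Hashtags were assigned to mice with HTODemux (Seurat 5.3.0, quantile 0.99), which left out 667 WT and 508 CaMKK2 KO doublets and 48 and 67 negatives. Cells with fewer than 200 genes, and 709 and 899 outliers by 3 median absolute deviations (scuttle 1.12.0), were removed, as were the 222 and 169 cells with the highest Scrublet scores (scanpy 1.11.5). A class was the one with the largest share of its markers detected and at least 3 of them. A cell with at least 4 microglia markers went to microglia whatever its other shares, unless its T, NK or B share was as large. Cells with ties or no class were left out of classes. The members, marker lists and gene lists were chosen with earlier results of these data known. Named genes were the members, the 12 core subunits, the partners that were called, the 5 genes most like each member and their sum, and 5 neighbours on either side, 1 of which is not reported here by name.

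For each class, UMIs were added up by mouse, and edgeR 4.0.16 (quasi-likelihood test, R 4.3.3) compared genes with at least 200 UMIs between 4 and 4 mice, on total UMIs as library sizes, with Benjamini-Hochberg adjustment. The test was tested on simulated data. Classes were compared with exact paired permutation tests (scipy 1.17.1). Hashtags mark separate mice. Alternatives were DESeq2 1.42.0, TMM, other filters and scalings, a stricter gate, and leaving out each mouse. Positions and transcripts come from GENCODE M21, which matched 31184 of 31253 identifiers.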

Additional observations from a re-analysis of the deposited data

Results flagged for a closer look

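In 112 groups of 4 mice, 9 held a mouse that stood apart from the other 3 by Dixon's criterion, where chance gives about 1 in 20. The criterion takes no account of counting error, and some of these values rest on few UMIs. WT mouse 4 had 1.89 CPM (36 UMIs) of Eif3j2 over all cells, with 1.95 to 1.96 CPM (29 to 33 UMIs) in the others. WT mouse 1 had 309 CPM of Eif3k, with 334 to 339 in the others. In TAM-like cells CaMKK2 KO mouse 3 had an Eif3j2 share of 73.5%, with 70.1% to 70.2% in the others. In microglia-like cells WT mouse 4 had a share of 0% (0 of 34 UMIs), with 2.68% to 3.12% in the others. In T cell-like cells WT mouse 1 had a share of 4.00%, with 2.45% to 2.61% in the others, and CaMKK2 KO mouse 1 had 32.6 CPM of Eif3j2, with 39.2 to 40.5. In NK cell-like cells WT mouse 2 had 101 CPM of Eif3j1 and 103 CPM of the pair, with 124 to 127 and 128 to 131 in the others. CaMKK2 KO mouse 4 had 46.7 CPM of Eif3j2 in NK cell-like cells, with 60.4 to 63.1 in the others.

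Hashtag doublets, which entered no comparison, carried the same exchange. They come from the same mice and the same 2 libraries as the cells used, so they are no separate support. Among hashtag doublets, which hold cells of 2 mice of a genotype, Eif3j2 made up 73.2% of 627 UMIs of the pair in CaMKK2 KO and 2.84% of 1408 in WT. Among barcodes with no hashtag it made up 60% of 5 UMIs in CaMKK2 KO and 0% of 6 in WT, which is too few to compare.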

How the results depend on the processing

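Mice could not be paired for the comparison of the genotypes. The hashtag numbers mark different mice in each genotype, and the labels pair none of them. The Eif3j2 share in CaMKK2 KO mice was 71.7% with outlying cells kept, 70.0% as a mean of CPM per cell and 70.4% in cells thinned to 4000 UMIs (67.9% in TAM-like and 61.0% in T cell-like cells, against 71.0% and 68.8% unthinned), and the log2 ratio of Eif3j2 was 4.65 per core eIF3 UMI. The core level itself differed by class, as given above. Per core UMI the class differences were -0.079 for NK cell-like minus TAM-like and -0.030 for TAM-like minus cMono-like cells. They were 0.75 for cMono-like minus T cell-like and -0.80 for T cell-like minus microglia-like cells. Mice were left out on the log2(CPM + 1) scale only, not per core UMI. On that scale NK cell-like minus TAM-like cells stayed between 0.33 and 0.41 without single mice. The adjusted p (exact permutation test) was 0.062, from the smallest p that 7 mice allow. TAM-like minus cMono-like cells ran from -0.011 (without CaMKK2 KO mouse 4) to 0.078 on the same scale.

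DESeq2 called 644 genes in all cells, 656 in TAM-like and 349 in cMono-like cells, against 172, 230 and 147 with edgeR. With no filter edgeR called 435 in TAM-like, 387 in microglia-like, 323 in cMono-like, 597 in T cell-like and 705 in NK cell-like cells, and with at least 50 UMIs 120 in microglia-like and 209 in T cell-like cells. The main counts for the last 3 classes were 78 in microglia-like, 124 in T cell-like and 193 in NK cell-like cells. With outlying cells kept it called 451 in NK cell-like cells. Leaving out single mice gave 71 to 187 in all cells, 101 to 374 in TAM-like, 30 to 119 in microglia-like, 41 to 156 in cMono-like, 46 to 194 in T cell-like and 71 to 795 in NK cell-like cells, the last without CaMKK2 KO mouse 3. Fewer calls without a mouse come with fewer samples, and the cause of the higher counts was not tested.

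The core subunits gained 1 call, Eif3b in microglia-like cells with no filter. The initiation genes in microglia-like cells gave 0 calls with TMM, 0 with DESeq2, 3 with no filter, and 0 to 1 without single mice. They gave 2 in T cell-like and 1 in NK cell-like cells with no filter, and 0 to 1 in NK cell-like cells without single mice. The neighbours gave 0 with TMM, 4 with DESeq2, 1 with no filter, and 0 to 1 without single mice. The share of all genes called under each of these settings is not given here. Nothing is therefore read from these counts of core, initiation and neighbouring genes. Over all cells the log2 fold changes of Eif3c, Eif3g, Eif3h and Eif3k were 0.033, 0.012, 0.012 and 0.021 with TMM and 0.034, 0.013, 0.012 and 0.022 with DESeq2. Without single mice they ran from -0.047 to 0.024, -0.090 to 0.028, -0.12 to 0.035 and -0.076 to 0.032, and those of Eif3d and Eif3e from -0.026 to 0.083 and -0.24 to 0.0024. Depth limits the microglia-like values most, with 82 Eif3j2 UMIs in all, too few to enter the fit there.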
